A study of Oryza sativa Japonica Group with 18 samples.

Results

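GIGANTEA (GI) and 5 further core clock genes of rice (LHY, PRR95, PRR37, PRR1 and PCL1) were measured in roots and shoots of gi knockout, pho2 knockout and wild-type (WT) plants. Every probe set that the array's platform annotation pairs with one of these genes was taken, whatever its signal, which gave 8 probe sets for 6 genes out of 57258 probe sets and 17905 genes. The 6 groups, with 3 arrays each, were gi root, pho2 root, WT root, gi shoot, pho2 shoot and WT shoot. The gi plants are labelled as knockouts of OsGIGANTEA and the pho2 plants as knockouts of OsPHO2, a ubiquitin-conjugating enzyme known for restraining phosphate uptake and transfer to the shoot. All plants, WT included, had the Nipponbare background (Japonica) and were 21 days old. They had germinated for 2 days and then stood for 19 days in hydroponic solution with ample phosphate, under 12 h of light, at 30 °C by day and 22 °C by night. The sources used here do not give how the knockouts were made, how many lines or plants entered a sample or the clock time of collection. Nor do the labels say that the 3 samples of a group came from separate plants, so p-values rest on a between-sample spread that may be only technical.

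The plant clock is a loop of repressors and activators that are transcribed at set times of the day, worked out mainly in Arabidopsis. LHY, a MYB repressor, peaks around dawn; pseudo-response regulators (PRR) then follow in waves through the day and repress LHY; PRR1, the rice counterpart of Arabidopsis TOC1, comes late in that sequence; and PCL1, the counterpart of Arabidopsis LUX, belongs to the evening complex. GI is a large protein of the late day that links the clock to flowering and acts upstream of Hd1 in rice, while PRR37 (also Hd2 or DTH7) delays rice flowering in long days. A level read once in the day does not tell the amplitude of a rhythm from its phase.

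Values are MAS5 signals on a linear scale, and the trimmed mean of every array lay at 500.06 to 500.08. Replicate arrays correlated at 0.982 to 0.986 in roots and 0.954 to 0.971 in shoots. The labelled tissues matched their markers: all 9 root markers found of 13 listed were higher in WT root than in WT shoot, and all 8 shoot markers found of 15 were lower. Spiked hybridisation controls stood apart in 2 ways. BioB, the control added at the lowest concentration, gave 32.5 to 55.4 on the 9 root arrays and 592 to 941 on the 9 shoot arrays, so that tissue and the handling of the arrays cannot be told apart. Over the 6 probe sets of BioC, BioDn and CreX, pho2 shoot arrays lay 0.49 log2 units below WT shoot arrays, against -0.15 for gi shoot and 0.07 and -0.05 for gi and pho2 root. In whole organs, fewer cells of a type and less RNA per cell cannot be told apart.

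Changes are differences of log2(signal + 16), mutant less WT, with the standard error (SE). They were tested with limma in the 9 arrays of a tissue across 34355 probe sets, and a gene counts as called at an adjusted p under 0.05. Where a gene has 2 probe sets, the brighter one was used in counts. Both mutants were compared with the same WT arrays, so their changes are not independent of each other.

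Without GI, the clock transcripts moved in both directions and the same 4 genes were called in each organ, the targeted GI among them. In gi roots, GI and LHY fell and PRR95 and PRR1 rose, which makes 4 of 5 tested clock genes called, where 2.31% of all tested probe sets were called. In gi shoots the same 4 genes were called in the same directions, of 6 tested, against 17.7% of all probe sets. PRR37 was not called in either organ, nor was PCL1 in the shoot. In pho2 the picture depended on the organ. In pho2 roots, PRR95 and LHY rose, 2 of 5 tested genes against a background of 15.9%. In pho2 shoots, PCL1 and PRR1 rose while LHY, PRR37 and PRR95 fell, 5 of 6 against a background of 28.8%. These backgrounds include probe sets dimmer than any tested clock gene. With a 60th-percentile filter, 2837 of 22903 probe sets were called higher and 2839 lower in pho2 root, and 4801 and 5069 in pho2 shoot. The same counts were 357 and 364 in gi root and 3171 and 3270 in gi shoot. Arrays of mutant and WT did not overlap for 4 of 5 tested genes in gi root, where the share of all tested probe sets was 21.7%, and for 4 of 5 in pho2 root (35.2%), 5 of 6 in gi shoot (34.7%) and 6 of 6 in pho2 shoot (43.6%). The gi counts include the targeted GI, and the clock genes were chosen with earlier results of these data known. The shares set beside these and later counts are therefore no test of the clock genes as a group.

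**Figure D1:**
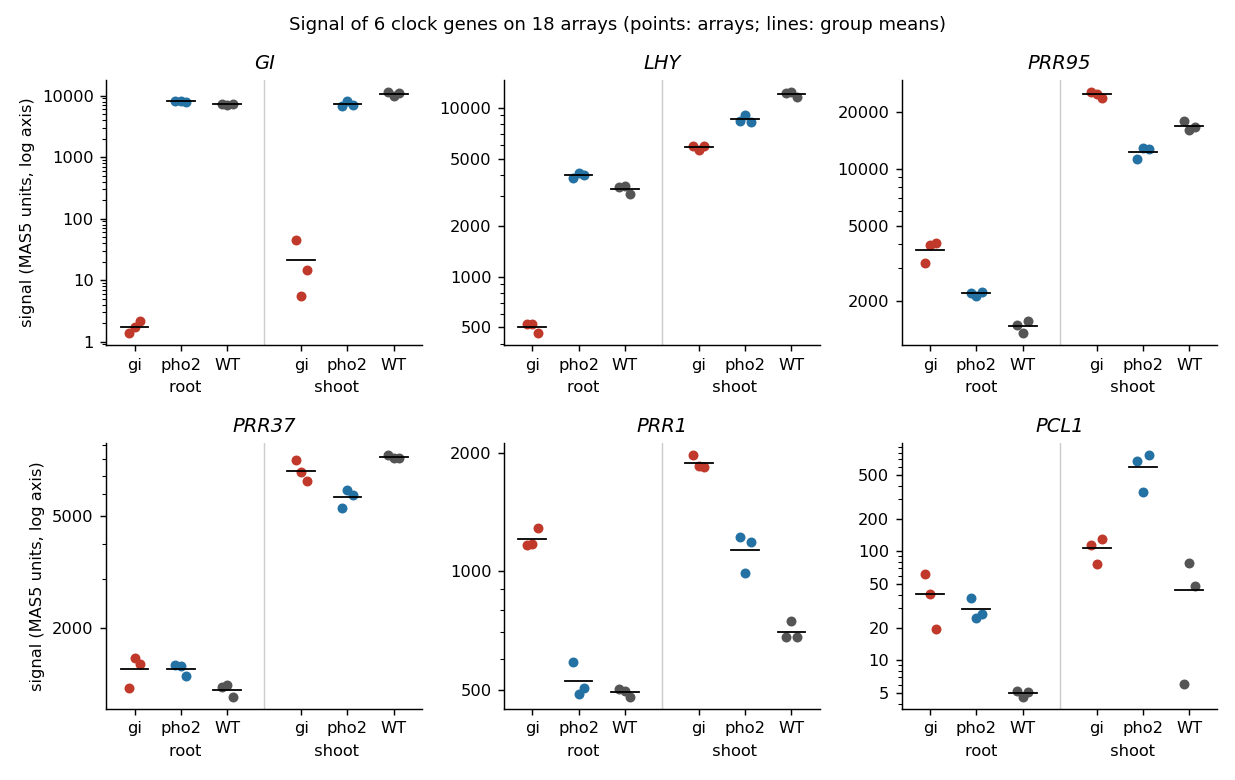
Signals of the 6 clock genes by their brightest probe set on all 18 arrays, with a logarithmic axis in MAS5 units; points are arrays, lines are group means of 3 arrays, and each panel shows gi, pho2 and WT root, then gi, pho2 and WT shoot. GI lies at 44.6 or less on all gi arrays, LHY is lowest in gi root, and PCL1 is highest in pho2 shoot.

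GI itself (NCBI gene 4325329) was read by 1 probe set. Its signals were 1.36, 1.71 and 2.19 in gi root, 8200, 8030.1 and 7920.1 in pho2 root and 7236, 7007 and 7393 in WT root. The gi root arrays were thus near 0, while pho2 root lay slightly above WT root without overlap. In shoots GI gave 44.6, 5.43 and 14.6 in gi, 6835, 8088 and 7142 in pho2 and 11520.5, 9868 and 10889 in WT. The loss of GI was the largest fall of all 34355 tested probe sets in both organs, at -8.67 ± 0.066 log2 units in root and -8.30 ± 0.27 in shoot (± SE; limma adjusted p = 3.34e-13 and 5.90e-09), and its size depends on the pseudocount. The 6 arrays labelled gi therefore match their label. PHO2 carries no name in the annotation used here, so the pho2 label could not be checked in the same way.

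In pho2 plants GI differed little from WT beside its loss in gi. The change was 0.16 ± 0.066 in root (limma adjusted p = 0.136) and -0.55 ± 0.27 in shoot (limma adjusted p = 0.163). The shoot SE is shared with the scattered gi shoot arrays. With the 6 pho2 and WT shoot arrays alone, GI was called lower in pho2 shoots (limma adjusted p = 0.00125). It was called in 4 of 20 alternatives (range of adjusted p 0.00125 to 0.863). On the scale of the hybridisation controls the change was -0.059 (limma adjusted p = 0.863). The pho2 and WT shoot arrays did not overlap for GI. By level, WT shoot came first, then pho2 root, pho2 shoot and WT root, whose neighbours overlapped, then gi shoot and gi root.

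LHY (NCBI gene 4344703) was read by the brighter of its 2 probe sets. It gave 523, 521 and 461 in gi root, 3838, 4106 and 4019 in pho2 root and 3377, 3439 and 3080.0 in WT root. The gi root arrays held less LHY than any other array of the series, and no group overlapped another. LHY fell in gi roots, with a change of -2.68 ± 0.074 log2 units (limma adjusted p = 2.70e-08), the 10th largest fall of the 34355 probe sets. In pho2 roots it rose by 0.27 ± 0.074 (limma adjusted p = 0.0332), a call that ended in 7 of 20 alternatives, among them leaving out any single pho2 or WT root array (range of adjusted p 0.0108 to 0.201).

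In shoots LHY was brighter than in roots in every genotype and fell in both mutants. It gave 5961, 5625 and 5961 in gi, 8372, 8997 and 8184 in pho2 and 12281, 12423 and 11616 in WT. The 3 genotypes were separate, with WT highest and gi lowest. The changes were -1.05 ± 0.069 log2 units in gi shoots (limma adjusted p = 2.14e-06) and -0.51 ± 0.069 in pho2 shoots (limma adjusted p = 0.000174). Set against gi rather than WT, pho2 held more LHY in both organs, by 2.95 ± 0.074 log2 units in root (limma adjusted p = 2.03e-08) and 0.54 ± 0.069 in shoot (limma adjusted p = 0.000245). The other LHY probe set gave 1.84 to 8.33 on all arrays, far under the filter, and was not tested.

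PRR95 (NCBI gene 4347674) is a day-phase pseudo-response regulator. In roots its signals were 3192, 3956 and 4063 in gi, 2215, 2139 and 2235 in pho2 and 1501, 1352 and 1577 in WT. The order gi, pho2, WT held on every root array. PRR95 rose by 1.32 ± 0.096 log2 units in gi roots (limma adjusted p = 6.74e-05) and by 0.57 ± 0.096 in pho2 roots (limma adjusted p = 0.00442). In shoots it gave 25412, 24796 and 23683 in gi, 11204, 12893 and 12749.8 in pho2 and 17896, 15934 and 16604 in WT. Here gi lay above WT and pho2 below it, again with no overlap. The changes were 0.55 ± 0.079 in gi shoots (limma adjusted p = 0.000541) and -0.45 ± 0.079 in pho2 shoots (limma adjusted p = 0.001). Directly compared, pho2 held less PRR95 than gi in root (-0.75 ± 0.096, limma adjusted p = 0.00232) and in shoot (-1.01 ± 0.079, limma adjusted p = 8.61e-06).

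The summed signal of the shoot markers reached higher values in the root groups in which PRR95 rose, but single markers differed in direction. The 8 shoot markers summed to 13094 to 17904 in gi root, 9550.3 to 14992 in pho2 root and 9249.5 to 9557 in WT root, and to 203856 to 242356 in WT shoot. Most of the root sum was CAB2R, a chlorophyll-binding protein, which averaged 12137 in gi root, 9241 in pho2 root and 6607 in WT root. PPDKB, a pyruvate phosphate dikinase, averaged 1402 in gi root and 1529 in pho2 root against 2001 in WT root. PSAG, a photosystem I subunit, averaged 232 in gi root and 447 in pho2 root against 371 in WT root. SWEET1B, the shoot marker nearest 0 in roots, averaged 5.71 in gi root, 3.39 in pho2 root and 3.42 in WT root, against 2253 in WT shoot. Another shoot marker, GLO1, averaged 325, 290 and 50.5 in the same 3 root groups. RBCS averaged 144, 110 and 69.4 there, PSAH 451, 375 and 211, and RCA 292, 422 and 106. CAB2R, GLO1, RBCS, PSAH and RCA were thus higher in both mutant roots than in WT root, and PPDKB alone was lower in both. Their part in the PRR95 values was not tested.

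PRR37 (NCBI gene 4344399) was not called in roots. The brighter of its 2 probe sets gave 1217, 1554 and 1487 in gi root, 1467, 1465 and 1346 in pho2 root and 1228, 1249 and 1134 in WT root. The gi arrays overlapped WT, and the pho2 arrays lay just above WT. The changes were 0.23 ± 0.097 in gi roots (limma adjusted p = 0.279) and 0.24 ± 0.097 in pho2 roots (limma adjusted p = 0.121). In shoots it gave 7924, 7192 and 6688 in gi, 5361, 6236 and 5952 in pho2 and 8279, 8069.8 and 8080.0 in WT. All pho2 shoot arrays were lowest. PRR37 fell in pho2 shoots, with a change of -0.48 ± 0.082 log2 units (limma adjusted p = 0.000886), while the gi shoot change was -0.17 ± 0.082 (limma adjusted p = 0.197). The dimmer probe set gave -0.61 ± 0.12 in pho2 shoots (limma adjusted p = 0.00277) and was not called in the other 3 mutant comparisons with WT. The 2 probe sets had opposite signs in gi roots, where the dimmer one gave -0.43 ± 0.15 (limma adjusted p = 0.198).

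PRR1 (NCBI gene 4330000) rose in gi in both organs. It gave 1169, 1174 and 1289 in gi root, 588, 489 and 505 in pho2 root and 503, 499 and 481 in WT root. Only the gi root arrays stood apart. In shoots it gave 1974, 1848 and 1839 in gi, 1222, 991 and 1186 in pho2 and 682, 748 and 681 in WT. The shoot order gi, pho2, WT held on every array. PRR1 rose by 1.26 ± 0.091 log2 units in gi roots (limma adjusted p = 6.54e-05), by 1.40 ± 0.098 in gi shoots (limma adjusted p = 3.42e-06) and by 0.67 ± 0.098 in pho2 shoots (limma adjusted p = 0.000306). In pho2 roots the change was 0.086 ± 0.091 (limma adjusted p = 0.579). Between the mutants, pho2 held less PRR1 than gi in root (-1.18 ± 0.091, limma adjusted p = 0.00012) and in shoot (-0.73 ± 0.098, limma adjusted p = 0.000349), the shoot call ending on the scale of the hybridisation controls (limma adjusted p = 0.0648; range over alternatives 2.91e-05 to 0.0648).

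PCL1 (NCBI gene 4326391), the evening-complex gene, stood out in pho2 shoots. It gave 114, 77.2 and 129 in gi shoot, 679.8, 347 and 763 in pho2 shoot and 6.1, 77.7 and 48.1 in WT shoot. Every pho2 shoot array lay above every other array, while gi and WT shoots overlapped and 1 WT shoot array was close to 0. PCL1 rose by 3.51 ± 0.47 log2 units in pho2 shoots (limma adjusted p = 0.000153) and stood 2.27 ± 0.47 above gi there (limma adjusted p = 0.0051). The gi shoot change was 1.24 ± 0.47 (limma adjusted p = 0.0902), and it was called without WT shoot replicate 2 (limma adjusted p = 0.0332). Without WT shoot replicate 1 it was 0.64 (limma adjusted p = 0.292; range over alternatives 0.0332 to 0.292). In roots PCL1 gave 61.7, 40.9 and 19.6 in gi, 37.6, 24.4 and 26.8 in pho2 and 5.23, 4.65 and 5.12 in WT. Both mutants lay above WT on every array, yet the mean over the 9 root arrays, 25.1, was under the filter of 30.6, so PCL1 was left out of the root tests. With no filter the root changes were 1.36 ± 0.28 in gi (limma adjusted p = 0.0644) and 1.11 ± 0.28 in pho2 (limma adjusted p = 0.0442).

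**Figure D2:**
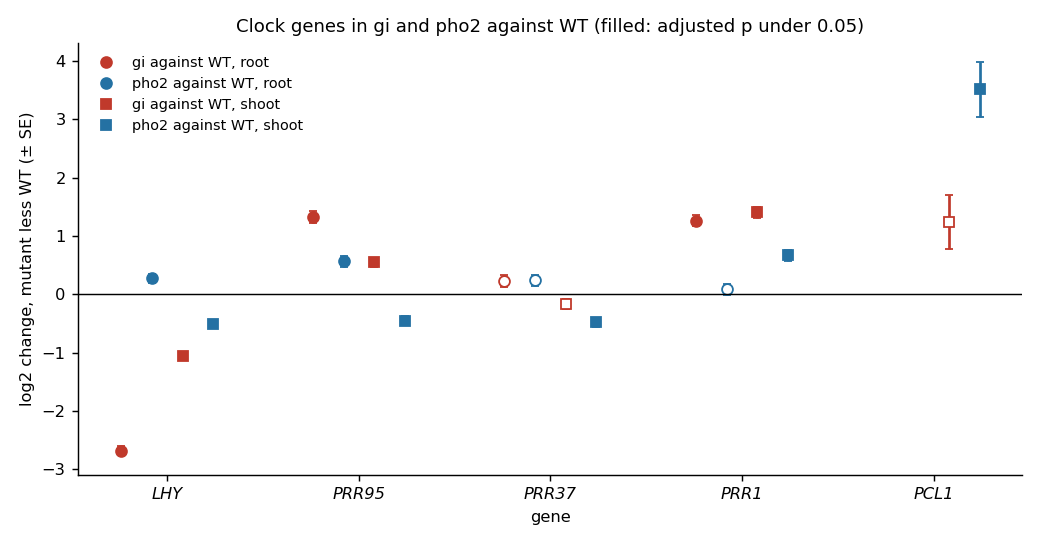
Log2 changes ± SE (limma, mutant less WT) of LHY, PRR95, PRR37, PRR1 and PCL1 in gi root, pho2 root, gi shoot and pho2 shoot; filled symbols have an adjusted p under 0.05, and PCL1 has no root value because it was under the filter. LHY falls most in gi root, PRR1 rises in gi of both organs, and PCL1 rises most in pho2 shoot.

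The falls in pho2 shoots depend on how arrays are put on a common scale. When signals were scaled to the hybridisation controls, an alternative chosen after seeing the data, the median of all tested probe sets in pho2 against WT shoot moved to 0.48 log2 units, against -0.0049 as deposited. On that scale LHY gave -0.018 (limma adjusted p = 0.889), while PRR37 and PRR95 turned to 0.010 and 0.036 (limma adjusted p = 0.925 and 0.695). PRR1 and PCL1 stayed called, at 1.16 and 4.0 (limma adjusted p = 4.26e-05 and 2.01e-05). A scale factor moves all probe sets of an array alike, so distances from that median are the same on both scales: LHY lay at -0.50 from it, PRR37 at -0.47 and PRR95 at -0.45, and PRR1 and PCL1 at 0.68 and 3.52. As deposited, the 8 shoot markers summed to 151177 to 184604 in pho2 shoot and to 203856 to 242356 in WT shoot. PPDKB alone averaged higher in pho2 shoot, at 9983 against 6687. The part of the markers in the falls in pho2 shoots was not tested.

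**Figure D3:**
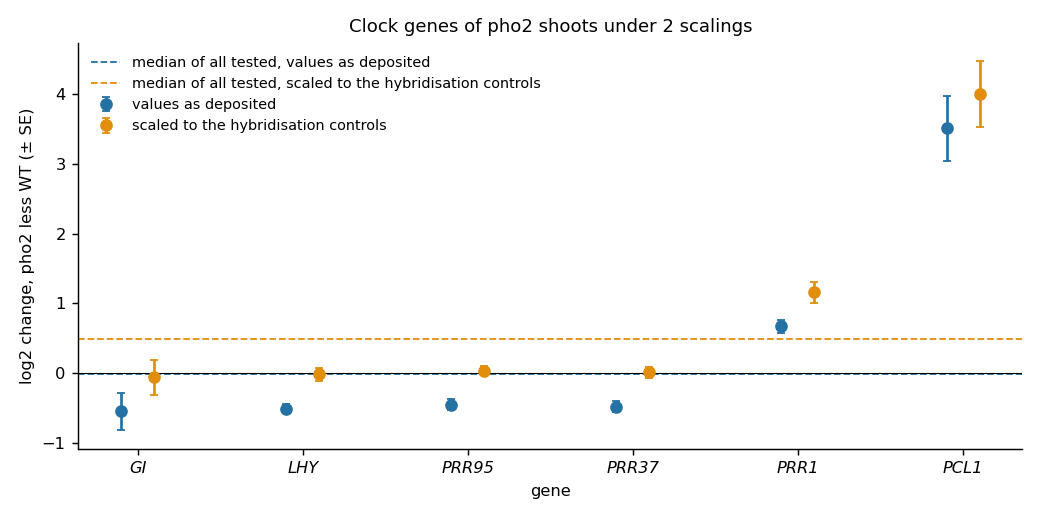
Log2 changes ± SE of the 6 clock genes in pho2 against WT shoots (3 arrays each), with values as deposited and scaled to the hybridisation controls; dashed lines are the medians of all 34355 tested probe sets on each scale, at -0.0049 and 0.48. LHY, PRR95, PRR37 and GI lie below the dashed line of their scale on both, and PRR1 and PCL1 above it.

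Several of the mutant effects differed between organs. The change in root less that in shoot was tested in 1 fit of all 18 arrays. For gi, 3 of 6 genes were called, against 12.3% of all probe sets. LHY fell further in gi roots than in gi shoots, with a difference of -1.63 ± 0.091 log2 units (limma adjusted p = 3.30e-08). PRR95 rose further in gi roots, with 0.77 ± 0.12 (limma adjusted p = 0.000638). PRR37 gave 0.40 ± 0.12 (limma adjusted p = 0.0483), a call that ended in 15 of 21 alternatives, among them the replicate block and leaving out any WT array or gi replicate 2 or 3 of either organ (range 0.00801 to 0.523). The dimmer PRR37 probe set had the opposite sign, at -0.37 ± 0.21 (limma adjusted p = 0.277). For PRR1 the root and shoot effects of gi differed by -0.14 ± 0.13 log2 units (limma adjusted p = 0.555).

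For pho2, 5 of 6 genes differed between organs, against 29.2% of all probe sets. LHY and PRR95 changed in opposite directions, higher in pho2 roots and lower in pho2 shoots, with differences of 0.78 ± 0.091 and 1.02 ± 0.12 log2 units (limma adjusted p = 9.02e-06 and 1.02e-05). PRR37 gave 0.72 ± 0.12 (limma adjusted p = 0.000345). The changes of PRR1 and PCL1 were larger in pho2 shoots than in pho2 roots, with differences of -0.58 ± 0.13 and -2.40 ± 0.62 (limma adjusted p = 0.00281 and 0.00688). In pho2 roots alone PRR1 was not called, and PCL1 was under the filter of the root tests. The PCL1 call ended with a pseudocount of 1 (0.159; range over alternatives 0.000205 to 0.159). On the scale of the hybridisation controls PRR95 differed by 0.58 (limma adjusted p = 0.00302; range over alternatives 5.52e-06 to 0.00302) and had no opposite directions, at 0.62 in pho2 root and 0.036 in pho2 shoot. The calls of LHY and PRR37 ended there, at 0.34 and 0.28 log2 units (limma adjusted p = 0.0583 and 0.143).

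**Figure D4:**
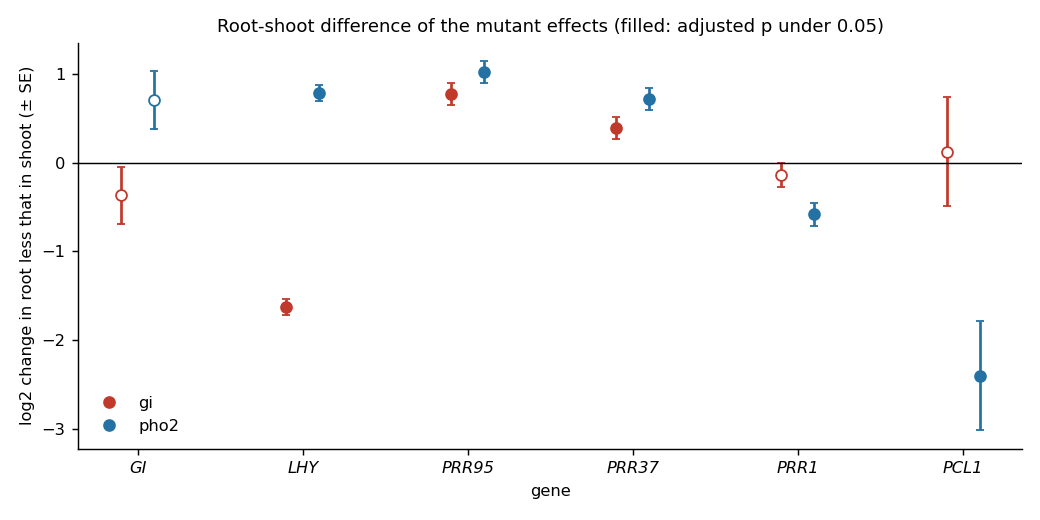
Difference of each mutant's log2 change between organs (root less shoot, ± SE, from 18 arrays) for the 6 clock genes, gi left of pho2; filled points have a limma adjusted p under 0.05. LHY is far below 0 for gi and above 0 for pho2, and PCL1 is lowest for pho2.

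In WT plants, with values as deposited, all 6 clock genes were lower in WT root than in WT shoot, where 71.7% of all tested probe sets were called and 32.2% were called lower. The differences, root less shoot, were -3.50 ± 0.086 log2 units for PRR95, -2.74 ± 0.088 for PRR37, -1.87 ± 0.064 for LHY, -1.28 ± 0.44 for PCL1, -0.57 ± 0.23 for GI and -0.50 ± 0.093 for PRR1. The limma adjusted p ran up to 0.0333, for GI, whose call ended in 7 of 15 alternatives, among them leaving out any WT root array or WT shoot replicate 1 or 3 (range 0.000271 to 0.236). Scaled to the hybridisation controls, which were 1.06 log2 units lower in WT root arrays, the median of all tested probe sets moved to 1.15. GI and PRR1 turned to 0.48 and 0.56 and were called higher in WT root (limma adjusted p = 0.0466 and 0.000741). LHY, PRR37 and PRR95 were still called lower, at -0.82, -1.69 and -2.44. The PCL1 difference was not called on that scale, nor without WT shoot replicate 2 or 3 (range of adjusted p 0.000228 to 0.648).

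Between the 2 mutants, pho2 less gi, 4 of 5 genes were called in root and 6 of 6 in shoot, against backgrounds of 7.59% and 19.1%. Both counts include GI, whose call follows from its loss in gi. GI and LHY were higher and PRR95 and PRR1 lower in pho2 than in gi in both organs. In shoots PCL1 was also higher and PRR37 lower (-0.31 ± 0.082, limma adjusted p = 0.0192), a call that ended in 6 of 20 alternatives and a value that turned to 0.025 on the scale of the hybridisation controls (range of adjusted p 0.0103 to 0.844). The 6 include leaving out replicate 1 or 2 of gi shoot or replicate 1 or 3 of pho2 shoot. These values share their arrays with both comparisons with WT.

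Across the 18 arrays the clock genes formed no single pattern. The Pearson r of log2(signal + 16) was highest for PRR37 and PRR95, at 0.965, and lowest for GI and PRR1, at -0.762. LHY and PRR1 gave -0.107, and GI and PRR37 gave 0.029. These values describe arrays that fall into 6 groups and 2 organs, so they carry the organ and genotype differences given above.

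Among 2632 probe sets with 1 named gene, BBD1 was the most like PRR1, with r = 0.971 over 18 arrays, and was also the least like GI, with r = -0.874. BBD1 is named for its bifunctional nuclease domain. Its signals were 1113, 1587 and 1734 in gi root, 198, 139 and 169 in pho2 root and 106, 123 and 111 in WT root. In shoots BBD1 gave 2622, 2542 and 3261 in gi, 642, 466 and 674 in pho2 and 186, 223 and 253 in WT. As with PRR1, every gi array lay above every WT array and the shoot order was gi, pho2, WT. BBD1 was picked by its r on these same arrays, so such likeness follows from the choice. The same holds for the other genes named by their r with a clock gene. BBD1 rose by 3.50 ± 0.18 log2 units in gi roots and by 3.58 ± 0.16 in gi shoots (limma adjusted p = 4.17e-06 and 7.97e-08). MHX1 came next to PRR1, at r = 0.831.

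**Figure D5:**
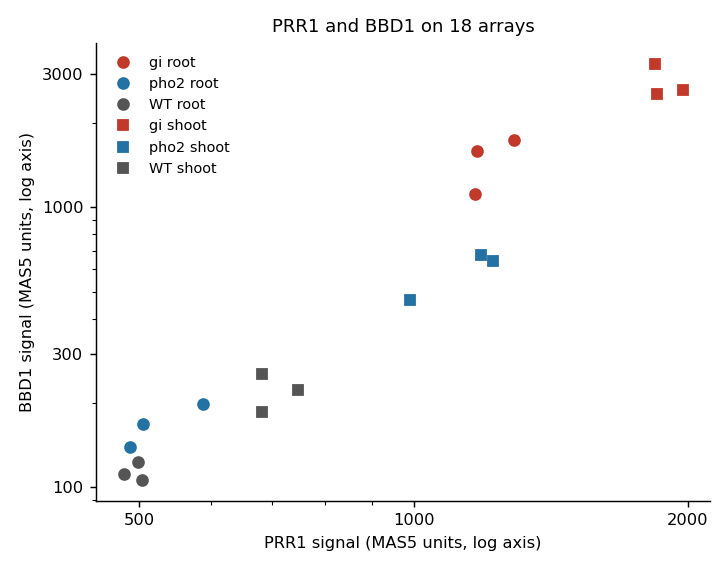
BBD1 signal against PRR1 signal on the 18 arrays, both axes logarithmic in MAS5 units; circles are root and squares shoot arrays, coloured by genotype. WT root arrays lie at the lower left, gi shoot arrays at the upper right, and the Pearson r of the log2 values is 0.971.

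The genes most like LHY were TIP1 (r = 0.887) and CYP88A5 (r = 0.874), and the least like was SAPK9, a stress-activated protein kinase (r = -0.911). SAPK9 averaged 1951 ± 297 in gi root, 401 ± 45 in pho2 root and 292 ± 29.6 in WT root, and 537 ± 31.1, 258 ± 57 and 189 ± 33.5 in gi, pho2 and WT shoot (SD, n = 3). It was thus highest where LHY was lowest. The genes most like GI were D2HGDH (r = 0.771) and ADC1, an arginine decarboxylase (r = 0.713). No named probe set passed 0.9 for GI, as for LHY, and 1 did for PRR1.

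PRR37 and PRR95 followed the organ. For PRR37, 499 probe sets had an r above 0.9, led by HCF106 (r = 0.996), a thylakoid protein translocation subunit, and PDF1B (r = 0.995), with PDC at the other end (r = -0.995). For PRR95 there were 420, led by BGLU16 (r = 0.984) and PORA (r = 0.978), a chlorophyll synthesis enzyme, with GINT1 at the other end (r = -0.981). For PCL1 the first were rab25 (r = 0.932), named as an ABA-responsive gene, and BGLU18 (r = 0.931). Like PCL1, both peaked in pho2 shoots, where rab25 averaged 331 ± 197 against 32.1 ± 18.02 in WT shoots and BGLU18 averaged 587 ± 93.4 against 34.1 ± 14.8 (SD, n = 3). FON1 was the least like PCL1 (r = -0.922).

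Other genes of the clock, of light perception and of photoperiodic flowering were read from lists by name, of which the annotation resolved only some. Of 25 further clock genes, 3 could be used: PRR73, a day-phase regulator close to PRR37, XCT and the casein kinase HD16. By their brightest probe sets none of the 3 was called in gi in either organ by limma, with 0 in root and 1 in shoot at an unadjusted p under 0.05. The 2 probe sets of PRR73 fell on either side of the threshold in gi shoots, where the dimmer one was called lower, at -0.46 ± 0.11 log2 units (limma adjusted p = 0.015), and the brighter one gave -0.24 ± 0.089 (limma adjusted p = 0.0855). In pho2 shoots, PRR73 and HD16 fell, with changes of -0.42 and -0.35 log2 units (limma adjusted p = 0.00387 and 0.0114), and both turned positive on the scale of the hybridisation controls (0.073 and 0.14). The HD16 call also ended without WT shoot replicate 3 or pho2 shoot replicate 3, and that of PRR73 under quantile normalization (ranges of adjusted p 0.00194 to 0.448 and 0.000207 to 0.395). In roots PRR73 was higher in pho2 than in gi by 0.25 ± 0.053 (limma adjusted p = 0.0217), a call that ended in 6 of 20 alternatives, among them leaving out replicate 1 or 2 of either group (range 0.0144 to 0.0917).

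Of 26 genes of light perception, 6 could be used: the red-light receptors PHYA, PHYB and PHYC, the blue-light receptors PHOT1A and PHOT2, and SE5, a haem oxygenase that makes the phytochrome chromophore. PHOT1A gave 2018, 2468 and 2601 in gi root, 1723, 1933 and 2462 in pho2 root and 1028, 898 and 1061 in WT root. Both mutants lay above WT, by 1.23 ± 0.14 log2 units in gi and 1.01 ± 0.14 in pho2 (limma adjusted p = 0.00163 and 0.00167). In shoots PHOT1A fell in both, with -0.60 ± 0.094 in gi and -0.79 ± 0.094 in pho2 (limma adjusted p = 0.00102 and 7.63e-05). Like PRR95, PHOT1A was lower in WT root than in WT shoot (-4.38 ± 0.12 log2 units), and the shoot-marker sums given with PRR95 apply to it too. SE5 rose in pho2 roots by 0.45 ± 0.097 (limma adjusted p = 0.0122), a call that ended under median centring (0.0988; range 0.00163 to 0.0988).

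SE5 fell in both shoots, with -0.37 log2 units in gi and -0.54 in pho2 (limma adjusted p = 0.00214 and 7.94e-05), and PHYC fell in pho2 shoots, with -0.54 (limma adjusted p = 0.00291). With PHOT2, 4 of the 6 light genes were called lower and 0 higher in pho2 shoots, against 14.3% lower over all tested probe sets, with a median of -0.45 against -0.0049. On the scale of the hybridisation controls the calls of SE5, PHYC and PHOT1A in pho2 shoots ended (limma adjusted p = 0.669, 0.785 and 0.0563). The PHOT2 value on that scale is not given here, so none of the 4 is shown to keep its call there. The SE5 call in gi shoots ended there too, at -0.22 log2 units (limma adjusted p = 0.162; range over alternatives 0.00152 to 0.162). The dimmer of the 2 PHYA probe sets was called lower in pho2 shoots, at -0.34 ± 0.10 (limma adjusted p = 0.028), and is not in these counts. In gi shoots 2 of 6 were lower and 0 higher, against 8.58% lower of all probe sets. In gi roots 1 was higher and in pho2 roots 2 were, with 0 lower, against 1.19% and 7.99% higher of all probe sets.

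Of 34 listed flowering genes, 10 could be used, among them HD1, the rice CONSTANS, and HD3A, a florigen. In gi and pho2 roots 1 of 9 tested was called, against 2.31% and 15.9% of all probe sets. It was NF-YC4, a subunit of a CCAAT-binding complex, higher by 0.60 ± 0.084 and 0.47 ± 0.084 log2 units (limma adjusted p = 0.00599 and 0.00555). In gi and pho2 shoots 1 of 10 was called, against 17.7% and 28.8% of all probe sets. It was the florigen-binding 14-3-3 protein GF14C, with changes of -0.33 and -0.38 (limma adjusted p = 0.0282 and 0.00866). Both calls ended under quantile normalization, the gi call also on the scale of the hybridisation controls and without any of WT shoot replicates 1 to 3 or gi shoot replicates 1 and 2, and the pho2 value turned to 0.11 on the scale of the hybridisation controls (ranges of adjusted p 0.00158 to 0.401 in gi and 0.00112 to 0.499 in pho2). HD1 and HD3A were not called, and they stand outside the naming rule, chosen because GI is known to act upstream of them in rice. HD1 averaged 83.6 ± 30.3 in gi shoots, 112 ± 22.9 in pho2 shoots and 52.8 ± 12 in WT shoots (SD, n = 3), and the change in gi was 0.50 ± 0.31 (limma adjusted p = 0.325). HD3A averaged 72.9 ± 23.5, 45.1 ± 20.8 and 88.3 ± 42.5 in the same groups.

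Between the mutants and between organs, further members of these lists were called. In pho2 less gi shoots, PHOT2 and HD16 gave -0.34 ± 0.081 and -0.34 ± 0.09 log2 units and EHD4, a promoter of flowering, gave 0.32 ± 0.10 (limma adjusted p = 0.0105, 0.0188 and 0.0416). The EHD4 call ended in 13 of 20 alternatives, among them leaving out any gi or pho2 shoot array but gi replicate 3. That of HD16 ended in 5, among them leaving out gi shoot replicate 1 or 3 or pho2 shoot replicate 3, and that of PHOT2 in 3, none of which leaves out an array. For gi, the organ difference of the change, root less shoot, was 1.83 ± 0.17 for PHOT1A, 1.002 ± 0.18 for NF-YC4 and 0.47 ± 0.11 for SE5 (limma adjusted p = 1.09e-05, 0.00166 and 0.0132). The SE5 call ended under median centring and on the scale of the hybridisation controls, where the difference was 0.24 (limma adjusted p = 0.323; range over alternatives 0.00813 to 0.323). For pho2 it was 1.80 ± 0.17 for PHOT1A, 0.998 ± 0.11 for SE5, 0.62 ± 0.17 for PHYC and 0.56 ± 0.1 for PRR73 (limma adjusted p = 1.58e-06, 7.75e-06, 0.0124 and 0.000404). On the scale of the hybridisation controls the PHYC and PRR73 calls ended, and the TRX1 value of 0.33 (limma adjusted p = 0.0265) turned to -0.11. The TRX1 call also ended without WT root replicate 3, WT shoot replicate 1 or 3, pho2 root replicate 1 or 2, or pho2 shoot replicate 3. In WT root less WT shoot, the blue-light receptors were far lower, with PHOT2 at -5.73 and PHOT1A at -4.38, and DTH8, SE5, PRR73 and SPIN1 lay at -2.53, -1.46, -1.45 and -1.43 log2 units. On the scale of the hybridisation controls DTH8, SE5 and PRR73 lay at -1.47, -0.41 and -0.39 and were still called, while SPIN1, at -0.38, was not (limma adjusted p = 0.0567; range over alternatives 2.22e-09 to 0.0567). NF-YC4 and XCT gave -0.83 and -0.61, and both turned positive on the scale of the hybridisation controls, where XCT was called higher in WT root.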

How the data were processed

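RNA of 18 rice samples was hybridised to Affymetrix rice arrays as biotin-labelled cRNA, per the labels' protocols. The authors deposited 1 linear intensity per probe set and array, made with MAS5 per the submitters' processing notes. Which MAS5 version and settings were used is unknown from these sources, and detection calls were not used. Precision is limited by the number of arrays. Of 57381 probe sets, 123 controls were left out. Signals were used as deposited, as log2(signal + 16), which understates changes of dim probe sets. Each tissue's 9 arrays entered 1 fit (lmFit and eBayes with an intensity trend, limma 3.58.1 under R 4.3.3), without probe sets whose mean lay under the 40th percentile, which left 34355. All 18 arrays were fitted for tissue differences. Tests were two-sided with Benjamini-Hochberg adjustment over all tested probe sets, called under 0.05. On simulated data for gi against WT shoot, changes of 1 log2 unit were placed in 200 probe sets with a shoot mean at or above the median. Of those that passed the filter, 54.0% were recovered among 34355 tested probe sets. Recovery for dimmer tested probe sets was not simulated. Tables were made with Python 3.11.15.

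Genes were named through the platform annotation and a RefSeq gene table: 22436 probe sets had 1 gene, 95 several and 34727 none. Named in the text are all member probe sets, up to 3 called genes with the smallest p of each list per comparison, and for each clock gene the 2 highest and 1 lowest Pearson r over 18 arrays. The members and lists were chosen with earlier results of these data known. Groups and replicate numbers came from the sample titles, and no 2 arrays held identical values (0 pairs). Alternatives were other pseudocounts (1 and 64), no filter and a 60th-percentile filter, quantile normalization, median centring, array weights, other sets of arrays, a replicate block and leaving out each array. Scaling to the hybridisation controls was added after seeing the data.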

Additional observations from a re-analysis of the deposited data

Results flagged for a closer look

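The listed values are differences of a mutant's log2 change between organs, root less shoot, that passed limma's test of that difference in the 18 arrays. For gi they are -1.63 for LHY, 0.77 for PRR95 and 0.40 for PRR37. The PRR37 value lost its call in 15 of 21 alternatives, and the dimmer PRR37 probe set gave -0.37. For pho2 they are 0.78 for LHY, 1.02 for PRR95, 0.72 for PRR37, -0.58 for PRR1 and -2.40 for PCL1. Hybridisation controls, which moved by -0.49 log2 units in pho2 against WT shoot arrays and by -0.05 in root arrays, are given beside the pho2 values in the report. No group of 3 arrays was tested for outlying arrays.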

How the results depend on the processing

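Counts of called clock genes, taken in either direction, held within 1.5 times the reported count in most alternatives. The exceptions were pho2 against WT root, where 2 genes became 1 under median centring and 1 to 2 when 1 array was left out; pho2 against WT shoot, where 5 became 2 on the scale of the hybridisation controls; and the organ difference of pho2, where 5 became 3 on that scale. On it, signs turned in pho2 against WT shoot for PRR37 (0.010), PRR95 (0.036), PRR73 (0.073), HD16 (0.14) and GF14C (0.11), in pho2 against gi shoot for PRR37 (0.025), and in WT root against WT shoot for GI (0.48), PRR1 (0.56), XCT (0.45) and NF-YC4 (0.22). They also turned for TRX1 in the organ difference of pho2 (-0.11), PCL1 in that of gi (-0.10) and the dimmer PRR37 probe set in gi shoot (0.094). In WT root against WT shoot, GI and PRR1 were called with the turned sign (limma adjusted p = 0.0466 and 0.000741). Both still enter the count of called clock genes on that scale. Uncalled values near 0 turned as well: the dimmer PRR37 probe set in pho2 root (-0.0048 under quantile normalization, -0.027 under median centring, -0.050 to 0.13 without 1 array) and in gi shoot (-0.11 to 0.010 without 1 array), and PRR37 in pho2 against gi root (-0.018 with array weights, -0.092 to 0.082 without 1 array). In the organ difference of gi, PCL1 turned too (-0.13 with a pseudocount of 64, -0.031 under quantile normalization, -0.32 to 0.72 without 1 array). The GI value there, -0.37 in the main fit, gave 0.22 with a pseudocount of 64 and -0.71 to 0.044 without 1 array. With a pseudocount of 1 the GI value was called, at -2.03 (limma adjusted p = 0.0378). The cause was not tested. Same-numbered arrays of different genotypes in 1 tissue shared little deviation from their group means, with correlations of -0.112 to 0.110. Whether root and shoot arrays of the same number are paired was not checked. With the replicate number as a block, 650 rather than 794 probe sets were called in gi root and 9310 rather than 9905 in pho2 shoot, and the counts of called clock genes stood at 4, 2, 4 and 5 in gi root, pho2 root, gi shoot and pho2 shoot. With the block, the PRR37 organ difference of gi and EHD4 in pho2 against gi shoot lost their calls, and no other named result did. Signals near background (GI in gi, PCL1 in WT root) give changes whose size rests on the pseudocount.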
